A study of Culex quinquefasciatus with 7 samples.

Results

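Females of the southern house mosquito, Culex quinquefasciatus, were followed from emergence through the time before a first blood meal, and 263 of the 20305 genes in the deposited table formed the group described here: genes that were strongly higher at 72 h than at 2 h after eclosion and had made most of that difference by 12 h. At eclosion the adult leaves the pupal skin. A gene was a member when its level at 72 h was at least 10 FPKM (sequenced fragments per kilobase of gene, relative to the mapped fragments of a library), when L, the log2 of FPKM + 1, was at least 2 units higher at 72 h than at 2 h, and when at least 0.5 of that rise was already present at 12 h. The first 2 conditions were met by 874 strong risers, of which the members made up 30.1% and the other 611 genes, the later strong risers, had less than 0.5 of their rise by 12 h. The libraries at 2, 12 and 72 h therefore chose the members, and the values at those times are given as a description without a test.

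All 7 libraries were made from whole females, 200 pooled for each, reared with 12 h of light and 12 h of dark, and differed only in age: 2, 12, 24, 36, 48, 60 and 72 h after eclosion. The labels name no strain and no treatment. There was 1 library per time and no replicate, so no value has a replicate error, and a difference between 2 libraries is given by its size alone. In pools of whole animals, more RNA per cell and more cells of one kind cannot be told apart.

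In a newly emerged mosquito the cuticle hardens, larval tissues that were carried through the pupa are broken down, and flight, feeding and sensory systems come into use. Over the following days juvenile hormone from the corpora allata prepares the fat body for yolk production, the midgut for digestion of blood and the ovary for a resting stage that ends with a blood meal. These processes are background. Each gene is listed under an identifier that starts with CPIJ, none of the 20305 identifiers was found in the reference table of 18458 genes used here, and so no member is given a name, a role, a position or a sequence, and no list of genes by function was built.

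Depth was read from the low values, where whole fragments give steps. Relative to the 2 h library it was between 0.743 at 60 h and 1.19 at 72 h, but how many fragments each library held is unknown, and counting intervals are therefore not given. The estimate is weak, as the commonest ratio held from 14.5% of the genes used at 60 h to 21.2% at 24 h. The deposited values also shift as whole libraries: taken over 2761 genes that had 10 FPKM or more throughout, the median ratio of a library to the geometric mean was 0.57 higher on the log2 scale at 72 h than at 2 h and 0.25 higher at 12 h than at 2 h. Among the 4 libraries from 24 to 60 h the same ratio stayed between -0.09 and 0.02 of that at 24 h. The members, the called slopes of the main fit, the 2-fold steps and the order of the 4 libraries from 24 to 60 h are counted on both scales. Most other counts, such as the highest of the 7 libraries and levels relative to 72 h, are as deposited only, and rescaling can move them.

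The shift of whole libraries bears on membership. With rescaled libraries 155 genes met the rule, and 150 of them were among the 263. Of the 113 members that left, 107 had a rescaled rise under 2 and the remaining 6 were under 10 FPKM at 72 h. Descriptions below are of the 263 members, and their values are as deposited unless rescaling is named.

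**Figure D1:**
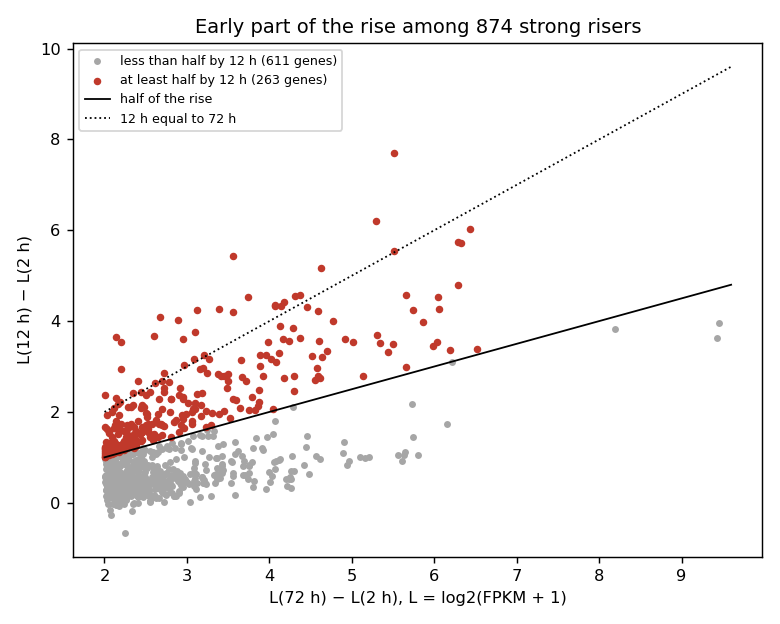
Each point is 1 of the 874 strong risers, with the rise in log2(FPKM + 1) from 2 to 72 h on the horizontal axis and the difference from 2 to 12 h on the vertical axis. The 263 members (red) lie on or above the solid line at 0.5 of the rise, the 611 later strong risers (grey) below it, and the 35 members on or above the dotted line were at least as high at 12 h as at 72 h.

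The members started low. At 2 h their median was 4.29 FPKM (quartiles 1.83 and 11.6), 36 of them were below 1 FPKM, and 73 were at 10 FPKM or more. At 12 h the median was 27.3 FPKM, no member was below 1 FPKM, and 217 were at 10 FPKM or more. One member, CPIJ006548, was listed at 0 FPKM at 2 h, which can be a failed estimate, and had 3.79 FPKM by 12 h and 11.1 FPKM by 72 h. Every member had its lowest value at 2 h.

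The rise from 2 to 72 h ranged from 2.00 to 6.52 on the log2 scale with a median of 2.72. Of the 263 members, 108 had a rise of at least 3, 54 of at least 4, 23 of at least 5 and 9 of at least 6. The rule required at least 2. For scale, among 8678 genes that reached 5 FPKM in 1 of the 2 libraries, 12.6% exceeded their 2 h level by 4-fold or more at 72 h, and at 12 h 11.2% of 6764 such genes exceeded it by 2-fold or more. The difference from 2 to 12 h had a median of 2.06 and reached 7.69. It was the largest of the 6 steps between neighbouring libraries in 247 members, and the step from 12 to 24 h was the largest in 14. The rule largely fixes these counts, as it requires the step from 2 to 12 h to hold at least 0.5 of the rise.

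The lower the level at 2 h, the larger the rise, as the scale and the minimum at 72 h largely fix. The 36 members below 1 FPKM at 2 h had a median rise of 4.16, the 154 from 1 to below 10 FPKM a median of 2.62, and the 73 at 10 FPKM or more a median of 2.52. The part of the rise present at 12 h hardly differed between these groups, with medians of 0.71, 0.69 and 0.68. At 72 h the groups had medians of 20.5, 31.3 and 175 FPKM.

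Several members lay close to the limits of the rule. The smallest part of the rise at 12 h among members was 0.501 and the largest among the later strong risers was 0.499. Between 0.5 and 0.55 there were 35 members, and between 0.45 and 0.5 there were 38 later strong risers. The smallest rise among members was 2.003 against 1.998 just outside, and the lowest level at 72 h was 10.1 FPKM against 9.88 FPKM just outside. CPIJ001096, the member closest to the limit, read 9.97, 21.02, 28.2, 35.1, 41.8, 39.9 and 43.05 FPKM at 2, 12, 24, 36, 48, 60 and 72 h. CPIJ012312, the closest gene outside, read 3.70, 8.45, 19.96, 14.3, 15.3, 11.9 and 18.1 FPKM. Next outside came CPIJ017414, a large riser, with 0.147, 8.83, 181, 175, 232, 119 and 84.4 FPKM.

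After 12 h the members reached a plateau in the 24 h library. The median part of the rise went from 0.69 at 12 h to 0.98 at 24 h and was then 0.96, 0.96 and 0.91 at 36, 48 and 60 h, where 1 is the level at 72 h. In FPKM the medians were 47.8, 41.04, 42.7 and 36.02 at 24, 36, 48 and 60 h, and 44.7 at 72 h. From 24 to 60 h, 224 of the 263 members were within 2-fold of their own level at 72 h in each of the 4 libraries. The later strong risers, chosen for a smaller part at 12 h, had medians of 0.62, 0.72, 0.90 and 0.87 at the same 4 times. The difference between these courses was not tested, and both come from the same single libraries.

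**Figure D2:**
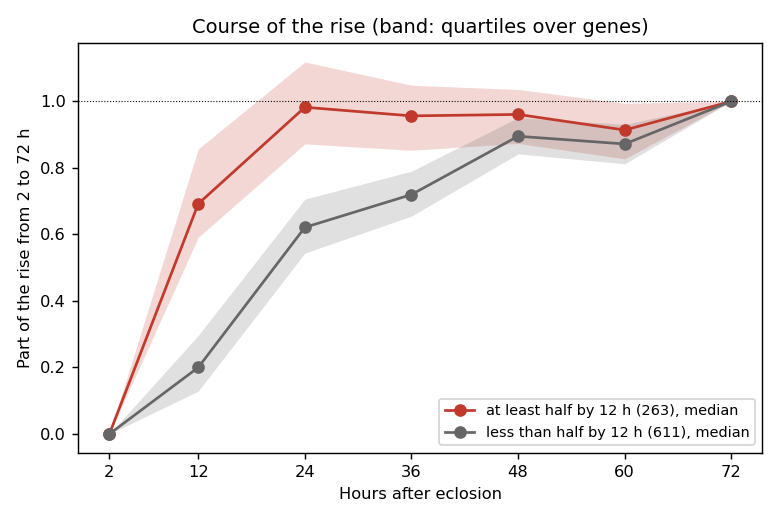
The part of the rise from 2 to 72 h, on the log2(FPKM + 1) scale, is plotted against hours after eclosion, with lines for medians and bands for quartiles over genes. Members (red) stood at 0.98 at 24 h and between 0.91 and 0.96 from 36 to 60 h, while the later strong risers (grey) were at 0.62 at 24 h and 0.87 at 60 h; both are 0 at 2 h and 1 at 72 h by construction.

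As a share of all FPKM, the members held 0.783%, 4.56% and 7.11% in the first 3 libraries. The share was then 6.74%, 6.09%, 5.89% and 6.37% at 36, 48, 60 and 72 h. The highest share was thus in the 24 h library, which the rule did not read. The members made up 4.72% of the 5567 genes with at least 10 FPKM at 72 h. A few abundant members carried much of the sum, and without the 10 most abundant at 72 h the share was 4.71% at 24 h and 4.21% at 72 h. Of the members, 3 reached 100 FPKM at 2 h, 48 did so at 12 h, and 71 to 74 at each later time.

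The 2 most abundant members at 72 h had opposite late courses. CPIJ002236 read 274.6, 909, 2678, 1730, 1640, 1380 and 1585 FPKM from the 2 h to the 72 h library (the rise was 2.52 on the log2 scale). It was highest at 24 h and lower in each of the next 3 libraries. CPIJ016041 read 85.2, 358, 758, 1157, 1045, 1613 and 1420 FPKM at the same times, and was highest at 60 h.

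The 2 members with the largest rise from 2 to 72 h differed in how early they got there. CPIJ019945 read 2.89, 39.7, 235, 372, 175, 372 and 357 FPKM through the 7 libraries, with a rise of 6.52 and a part of 0.52 at 12 h, just inside the rule. Between 24 and 60 h it was high at 36 and 60 h and low at 24 and 48 h. CPIJ019905 was at 4.29 FPKM at 2 h and already at 344 at 12 h, a part of 0.94. It then read 381, 496, 383, 512 and 457 FPKM from 24 to 72 h, with the same 2 libraries high.

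The 2 largest differences from 2 to 12 h belonged to genes that were lower again at 72 h, while CPIJ019905, with the third largest, was higher at 72 h than at 12 h. CPIJ010337 went from 1.41 to 496 FPKM, a difference of 7.69 on the log2 scale, and then at 196, 118, 104, 103 and 109 FPKM. Its 12 h library was the highest, and from 36 h on it stayed between 103 and 118 FPKM. CPIJ007646 went from 0.206 to 88.1 FPKM, a difference of 6.21, reached 144 FPKM at 24 h and read 95.7, 68.6, 35.05 and 46.3 FPKM afterwards.

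**Figure D3:**
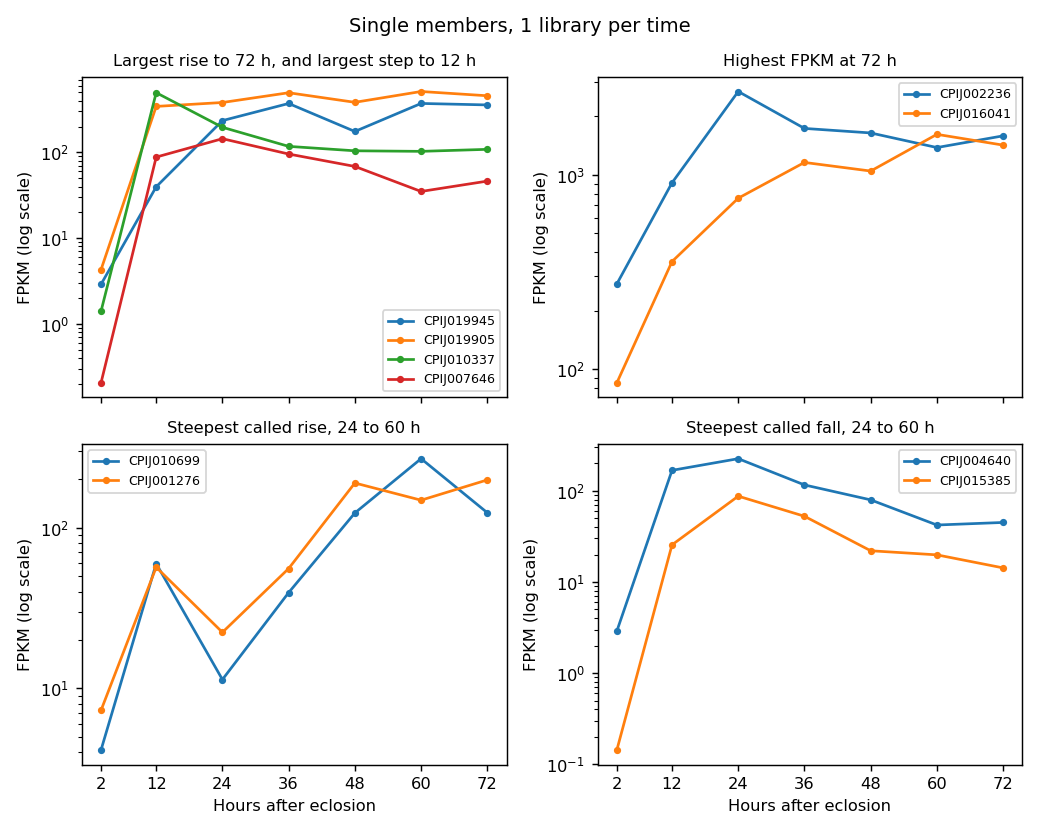
FPKM on a log axis against hours after eclosion for 10 members, 1 library per point, in 4 panels by what each was chosen for. CPIJ010337 is highest at 12 h with 496 FPKM, CPIJ002236 at 24 h with 2678 FPKM, the 2 members with the steepest late rise are lower at 24 h than at 12 h, and the 2 with the steepest late fall are highest at 24 h.

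Members were sorted by the library in which they were highest. The 72 h library was highest for 92 members (35.0%), the 24 h library for 81 (30.8%), the 48 h library for 38, the 60 h library for 26, the 36 h library for 19 and the 12 h library for 7. Among the later strong risers the 72 h library was highest for 498 of 611 and the 24 h library for 11. The 72 h library also had the largest scale of the 7. A level that was higher in each successive library was found in 3 members. CPIJ017043, 1 of these 3 and chosen after its values were seen, read 1.38, 26.6, 69.9, 92.1, 97.6, 145 and 155 FPKM.

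The 81 members that were highest at 24 h were lower at 72 h by the sorting itself, so only the size of that difference is described. Their medians through the 7 libraries were 5.19, 43.9, 80.02, 55.8, 46.9, 40.02 and 46.3 FPKM. At 72 h they were a median of 0.45 (log2) below their highest value, and still 2.81 above 2 h. The 92 members that were highest at 72 h had medians of 22.2, 36.6, 34.5, 37.01, 33.03 and 48.5 FPKM from 12 to 72 h. From 24 to 60 h single members of this group went either way, with slopes from -0.63 to 1.96 per 24 h (log2). The 26 members highest at 60 h had medians of 37.7, 60.3, 76.8 and 104 FPKM from 24 to 60 h and 69.3 FPKM at 72 h.

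A return of 2-fold or more from the highest value towards the starting level was seen in a minority. Smaller returns were common, as 171 members were highest before 72 h. The counts in this paragraph are as deposited, and with rescaled libraries the median part of the rise at 24 h was 1.01. Of the 263 members, 35 were at least as high at 12 h as at 72 h, and 122 were at least as high at 24 h as at 72 h. At 72 h, 26 members were at least 2-fold below their highest value and 4 were at least 4-fold below it. The 2 largest returns were those of CPIJ015385, which was 2.53 (log2) below its value at 24 h, and CPIJ004640, 2.30 below its own value at 24 h. The 35 members that were as high at 12 h as at 72 h had medians of 2.63, 50.1, 84.9, 55.8, 38.5, 33.3 and 37.97 FPKM over the 7 times, and 19 of them were highest at 24 h.

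**Figure D4:**
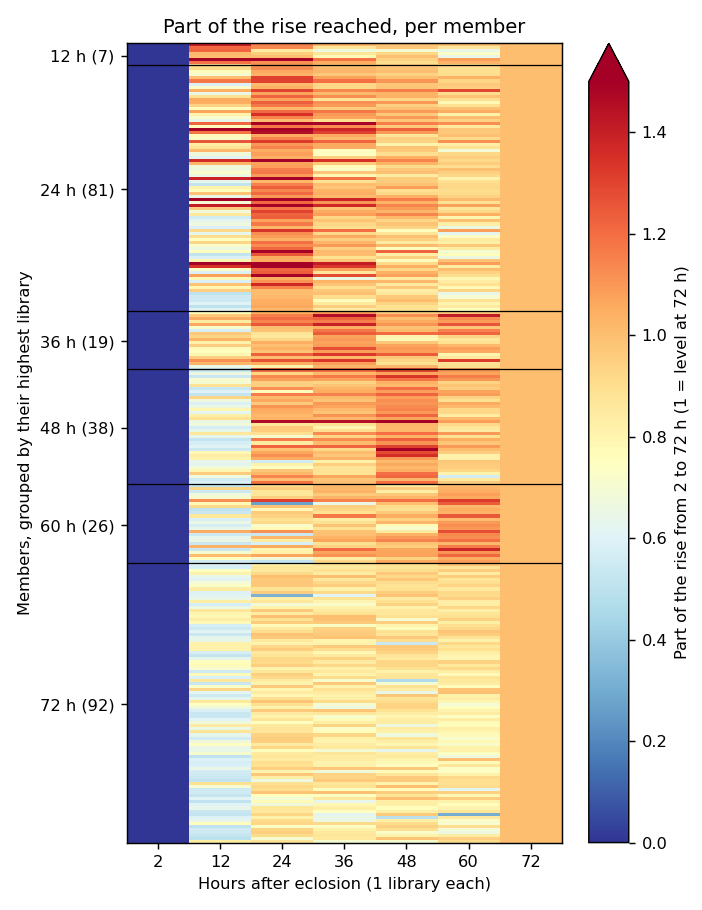
Each row is 1 of the 263 members and each column 1 library, coloured by the part of the rise from 2 to 72 h (0 at 2 h and 1 at 72 h by construction, values above 1.5 drawn in the darkest red). Rows are grouped by the member's highest library, from 7 members at 12 h and 81 at 24 h to 92 at 72 h, and within groups by the size of the rise.

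The 4 libraries that the rule did not read, at 24, 36, 48 and 60 h, were used to test the late course of each gene. The slopes are not independent of the rule. Members were chosen for a high 12 h level relative to 72 h, which leaves less of the rise for the hours in between. The difference between members and other genes was therefore partly set by the rule and was not tested. A slope on time was fitted to log2(FPKM + 1) with limma over all 11772 genes that averaged 1 FPKM or more in these libraries, and p-values were adjusted over all of them by the Benjamini-Hochberg method. All 263 members passed that minimum. Of the members, 37 fell and 14 rose at an adjusted p of 0.05, which is 14.1% and 5.32% of them, against a background of 4.82% of all genes falling and 8.58% rising. With rescaled libraries 24 members fell and 9 rose, beside 3.35% and 6.41% of all genes. As deposited, but fitted over only the 4989 genes that averaged 10 FPKM or more, 39 of 253 members fell (15.4%) and 13 rose (5.14%). Of those 4989 genes 7.76% fell and 9.80% rose, so the background share falling was higher than with the minimum of 1 FPKM. The fit has 2 residual degrees of freedom, which hold noise and departures from a straight line alike.

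Most members pointed downward from 24 to 60 h, whether called or not. The median slope of the 263 members was -0.15 per 24 h on the log2 scale, with 179 slopes below 0, and the median over all genes tested was 0.11. The median standard error of a member's slope, which limma draws partly from all genes tested, was 0.17. The 611 later strong risers, chosen for a smaller part of the rise at 12 h, had a median slope of 0.47, with 251 called rising and 6 called falling. Without the 24 h library the median slope of members was -0.10, and 8 members fell and 2 rose, beside 0.44% of all genes falling and 0.279% rising. Without the 36 h library 52 members fell and 18 rose, beside 5.61% and 8.6% of all genes. Without the 48 h library 15 fell and 2 rose, beside 1.16% and 0.819%, and without the 60 h library 23 fell and 11 rose, beside 2.9% and 6.66%. All of these fits have 1 residual degree of freedom. With the 12 and 72 h libraries added, which chose the members, 11 fell (4.18%, against 5.35% of all genes) and 36 rose (13.7%, against 28.2%).

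**Figure D5:**
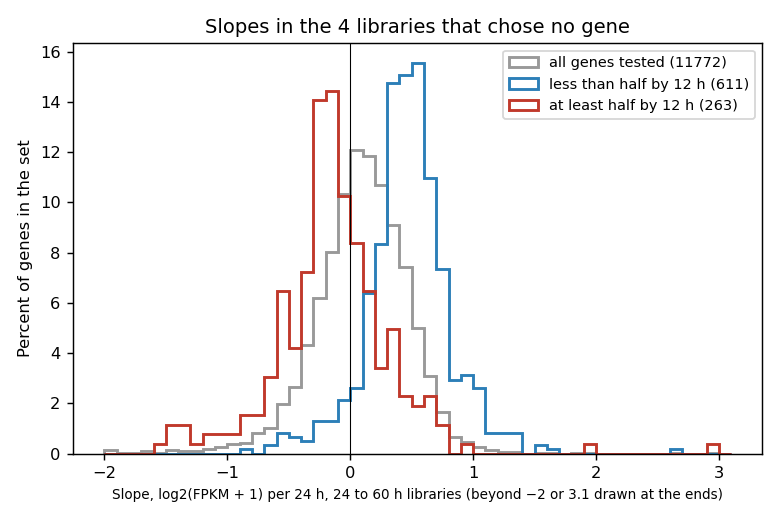
The horizontal axis gives the fitted slope of log2(FPKM + 1) per 24 h in the libraries at 24, 36, 48 and 60 h, and the vertical axis the percent of genes of each set in steps of 0.1. Members (red, 263) centre at -0.15, all genes tested (grey, 11772) at 0.11 and later strong risers (blue, 611) at 0.47. The rule itself favours lower slopes in members than in later strong risers.

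The 37 members that fell had been high early. Their medians were 2.64 and 50.1 FPKM in the first 2 libraries, 91.7, 68.8, 46.07 and 29.01 FPKM from 24 to 60 h, and 44.1 FPKM at 72 h. Their slopes ranged from -1.54 to -0.50 per 24 h. The call itself favours a high 24 h library, the first of the fit, and in 34 of the 37 that library was the highest of the 7. None of the 37 was back at its 2 h level at 60 h, where the smallest remaining difference from 2 h was 1.45 on the log2 scale. At 72 h, 31 of the 37 were higher than at 60 h, as were 199 of all 263 members. Over all genes counted in that step the median difference was 0.21 (log2). A falling call also favours a low 60 h library, the last of the fit.

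CPIJ004640 had the steepest fall. It read 2.89, 168, 225, 116, 79.6, 42.2 and 44.96 FPKM through the 7 libraries. Its slope over 4 libraries was -1.54 ± 0.17 per 24 h (limma adjusted p = 7.43e-06). Here and below, ± is the standard error that limma moderates with the variance of all genes tested. It is not the spread of the single gene alone. Each of the 4 libraries was lower than the one before it. CPIJ015385 read 0.143, 25.5, 87.4, 52.6, 22.0, 19.8 and 14.3 FPKM, with a slope of -1.50 ± 0.19 (limma adjusted p = 3.16e-05), and was also lower in each successive library from 24 h on. The abundant CPIJ002236 was among the 37, with a slope of -0.59 ± 0.17 (limma adjusted p = 0.0236), as were CPIJ010337, with -0.59 ± 0.18 (limma adjusted p = 0.0321), and CPIJ007646, with -1.30 ± 0.17 (limma adjusted p = 3.86e-05).

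The 14 members that rose after 24 h had a smaller part of their rise by 12 h, a median of 0.60 against 0.93 for the 37 that fell. The part is taken relative to the level at 72 h, so a later rise in itself lowers it and a later fall raises it. This gap is a description. Their medians were 20.6 FPKM at 12 h and 25.2, 49.5, 65.0 and 93.7 FPKM from 24 to 60 h, then 59.96 FPKM at 72 h. In 11 of the 14 the 72 h library was lower than the 60 h library, and a rising call favours a high 60 h library. CPIJ016041, the second most abundant member at 72 h, was among them with a slope of 0.62 ± 0.17 (limma adjusted p = 0.0211).

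The 2 steepest late rises followed a dip at 24 h. CPIJ010699 read 4.13, 59.7, 11.3, 39.4, 123, 268 and 124 FPKM, with a slope of 2.99 ± 0.17 per 24 h (limma adjusted p = 8.60e-10). CPIJ001276 read 7.29, 56.7, 22.3, 55.6, 189, 148 and 198 FPKM, with a slope of 1.96 ± 0.25 (limma adjusted p = 3.86e-05). For both genes the 12 h value that made them members stood above the libraries on either side. Without the 24 h library their slopes were 2.74 and 1.40.

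After the step that chose them, the members moved most from 12 to 24 h. Of the 263, 88 gained 2-fold or more and 4 lost 2-fold or more, where the same held for 9.53% and 3.99% of all genes that reached 5 FPKM in 1 of the 2 libraries. The 12 h library also chose the members, so this step is a description. With rescaled libraries 51 members gained and 4 lost 2-fold or more, beside 5.41% and 6.33% of all genes. The 4 included CPIJ001276, CPIJ010337 and CPIJ010699, and the fourth, CPIJ010046, went from 113 to 53.4 FPKM.

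The 3 steps within the libraries that the rule did not read held few 2-fold differences. As deposited, each count was nonetheless a larger share of members than of all genes, by little from 24 to 36 h. From 24 to 36 h, 5 members were at least 2-fold higher (1.90% of members, against a background of 1.62%) and 6 lower (2.28%, against 1.48%). From 36 to 48 h, 3 were higher and 8 lower, or 1.14% and 3.04% of members, against 0.472% and 0.593% of all genes. From 48 to 60 h, 9 were higher and 10 lower, or 3.42% and 3.80%, against 0.447% and 0.507%. With rescaled libraries the 3 steps had 8 higher and 4 lower (2.28% and 1.22% of all genes), 3 higher and 13 lower (0.337% and 0.824%), and 12 higher and 8 lower (0.584% and 0.36%). Which direction held more members thus turned with the scale from 24 to 36 h and from 48 to 60 h. From 60 to 72 h, a step that shares the 72 h library with the rule, 3 were higher and 5 lower, beside 0.286% and 0.869% of all genes, and after rescaling 1 was higher and 7 lower, beside 0.0867% and 1.5%. With 1 library per time none of these counts was tested.

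The size of such differences was described without regard to direction. Over the members, the median absolute difference in log2(FPKM + 1) was 0.76 in the step from 12 to 24 h and then 0.29, 0.25, 0.27 and 0.35 in the following 4 steps. Over all genes that reached 5 FPKM in a step, it was 0.45, 0.25, 0.24, 0.18 and 0.28. Within the 4 libraries from 24 to 60 h, the highest and the lowest value of a member differed by a median of 0.61 on the log2 scale, and 199 members stayed within 2-fold. The median was 0.77 for the later strong risers and 0.52 for all genes tested.

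The order of the 4 libraries that the rule did not read was also counted. In 121 of 263 members (46.0%) the 24 h library was the highest of the 4, against 23.6% of all 11772 genes tested, and 106 with rescaled libraries, against 21.7%. The 48 h library was the highest in 64 members (24.3%, against 40.7% of all genes), the 60 h library in 44 (16.7%, against 24.9%) and the 36 h library in 34 (12.9%, against 10.8%). With rescaled libraries these counts were 46 for 48 h, 53 for 60 h and 58 for 36 h (17.5%, 20.2% and 22.1% of members, against 28.0%, 34.4% and 16.0% of all genes). Among the later strong risers the 24 h library was the highest of the 4 in 27 of 611. These counts were chosen after the data were seen and were not tested, and like the slopes they are not independent of the rule.

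The libraries at 36 and 60 h lie in the opposite phase of the light-dark cycle from those at 24 and 48 h, provided that the pools emerged at one time of day, which the labels do not give. In 85 members (32.3%) both 36 h and 60 h lay below both 24 h and 48 h, against a background of 20.2% of all genes, and in 27 members (10.3%) both lay above, against 9.85%. With rescaled libraries 54 members lay below, against 12.1% of all genes, and 38 above, against 17.1%. The balance between the directions thus moved with the scale of whole libraries. Rescaling lowers the 24 and 48 h libraries more than the 36 and 60 h libraries. The 27 members that lay above as deposited therefore had to stay above.

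Single members alternated by more than the scale of the libraries, which moved by at most 0.11 (log2) between neighbours from 24 to 60 h. CPIJ008471 read 1.23, 43.2, 78.6, 199, 70.3, 173 and 48.02 FPKM, its 36 and 60 h libraries averaging 1.31 (log2) above its 24 and 48 h libraries. CPIJ009506 went the opposite way, with 5.69, 20.8, 71.5, 31.9, 44.8, 19.2 and 31.2 FPKM and a mean difference of -1.16. Both were named as the largest differences in each direction after their values were seen, and no test was made.

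Members often carried successive identifiers. Of the 263, 59 (22.4%) had another member at the next identifier number, in 19 runs of 2 and 7 runs of 3. Of the 5304 other genes with at least 10 FPKM at 72 h, 146 (2.75%) stood next to a member, and of the 611 later strong risers 21 (3.44%). How often later strong risers stood next to each other is not given here. Whether such runs are particular to the members was therefore not tested. Among the 150 members that stay with rescaled libraries, 34 (22.7%) had another of the 150 at the next number. The file gives no positions, and whether successive identifiers lie side by side in the genome was not tested.

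Courses within the runs were close in some pairs and apart in others. After removing each gene's mean over 24 to 60 h, the largest deviation between the 2 genes of a neighbouring pair had a median of 0.30 (log2) over 33 pairs, and it was under 0.25 in 13 pairs (39.4%). In 12 of the 33 pairs (36.4%) both genes were highest in the same library, and in 6 pairs the courses from 24 to 60 h correlated below 0. Over the 34420 pairs of members without successive identifiers, the median deviation was 0.53, it was under 0.25 in 12.8%, and 25.1% were highest in the same library. Pairs share genes and libraries, and no test was made. The run CPIJ015057, CPIJ015058 and CPIJ015059 read 7.15, 6.82 and 6.74 FPKM at 2 h, peaked at 74.5, 77.8 and 82.7 FPKM at 24 h, and ended with 61.4, 65.3 and 68.9 FPKM, so that the 3 genes were nearly equal in level too. CPIJ019944, next to CPIJ019945, shared its alternation, with 178, 354, 153 and 383 FPKM from 24 to 60 h.

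Other neighbours were far apart in level. CPIJ007775 went from 65.05 to 779 FPKM between 2 and 72 h, and CPIJ007776 from 3.93 to 50.7 FPKM, and from 24 to 60 h their courses deviated by at most 0.06 (log2). The third gene of that run, CPIJ007777, deviated from CPIJ007776 by up to 0.38, and its course correlated with it at -0.43 over those 4 libraries. CPIJ007837 and CPIJ007838 deviated by up to 0.78, with a correlation of -0.75. CPIJ013061 and CPIJ013062 stood at 263 and 506 FPKM in the 24 h library and also deviated by at most 0.06. Near-identical genes can share reads, and the sources used here do not say how such reads were counted, so the values of members with similar neighbours are uncertain to that extent. Whether any neighbours share reads was not tested. The runs given here were chosen after their values were seen.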

How the data were processed

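Messenger RNA of 7 pools of whole females was sequenced as paired ends of 51 nucleotides from inserts averaging 200 nucleotides, per the labels' protocols. The authors deposited 1 table of FPKM values per gene and library. Per the file headers it names only gene and hour, so FPKM is an inference from the design text, which names TopHat, Cufflinks and Cuffdiff, and from values that are not whole. CASAVA 1.8 and Trimmomatic were used too, per the submitters' processing notes. Not given in the sources used here are genome build, annotation, strand and scaling between libraries.

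Columns were matched to samples by hour. Computations used log2(FPKM + 1), which understates the change of low genes, in Python 3.11.15 (pandas 2.3.3, numpy 2.4.6). Slopes from 24 to 60 h were fitted with limma 3.58.1 in R 4.3.3 (lmFit, then eBayes with a mean-dependent prior), and the fit was tested on simulated data. The step counts used genes that reached 5 FPKM in 1 of the 2 libraries and a difference of at least 1 (log2). Relative depth is the commonest ratio between libraries among values above 0 and below 0.3 FPKM, within 0.02 (log2). The alternatives were a pseudocount of 0.1, rescaled libraries, log2 of time, other minimum values and leaving out single libraries. The members and lists were chosen with earlier results of these data known. Genes given by identifier were the first 2 by size of rise, early difference, level at 72 h, late slope in each direction (among called members with a mean of at least 10 FPKM), return from the highest value, and distance from the limit at 12 h; any other identifier was chosen after its values were seen. Lists of genes by function and their results were not run, since no identifier could be named.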

Additional observations from a re-analysis of the deposited data

How the results depend on the processing

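Membership was 263 as deposited and 155 with rescaled libraries, 316 with a pseudocount of 0.1, 203 with a minimum of 20 FPKM, 314 with no minimum and 190 with a part of 0.6. Members falling from 24 to 60 h numbered 37 as fitted, 24 with rescaled libraries and 15 with no minimum, and between 8 and 52 with 1 of the 4 libraries left out (8 without the 24 h, 15 without the 48 h and 23 without the 60 h library). Members rising numbered 14, with 9 after rescaling, 2 with no minimum, and 2 to 18 with a library left out (2 without the 24 h and 2 without the 48 h library). Over all genes the rising count was 1010, with 489 for a mean of at least 10 FPKM, where fewer genes were tested, 82 with no minimum, 33 without the 24 h and 96 without the 48 h library. The falling count was 567, with 135, 52 and 136 under the last 3 of these settings and 342 without the 60 h library. Under the 10 FPKM minimum it was 387, or 7.76% of the 4989 genes tested, beside 39 of 253 members (15.4%). With all 6 libraries from 12 to 72 h, which adds 2 libraries that chose the members, 36 members rose (13.7%) and 11 fell (4.18%), against 3335 (28.2%) and 633 (5.35%) of all genes, so the members' share falling was then no longer above that of all genes. The median slope of members was 0.19 in that fit. It was -0.12 with rescaled libraries (-0.11 over the 150 members that stay, an alternative chosen after the data were seen), -0.17 per doubling of time, and -0.10, -0.16, -0.18 and -0.14 without the 24, 36, 48 and 60 h library. Of the 4 steepest slopes named, CPIJ010699 and CPIJ015385 lost their call with the 6 libraries (slopes 1.15 and -0.66), and none changed sign under the 10 alternatives. The cause of the other changes was not tested. From 12 to 24 h, 55 members differed 2-fold after rescaling, against 92. The median part of the rise at 24, 36, 48 and 60 h was 0.984, 0.958, 0.962 and 0.915 with a pseudocount of 0.1 and 1.01, 1.01, 0.976 and 0.960 with rescaled libraries. Without the 10 most abundant members the share of all FPKM was 0.551%, 3.03%, 4.71%, 4.62%, 4.16%, 4.01% and 4.21% from 2 to 72 h. Rescaling gave 58 members (22.1%, against 16.0% of all genes) in place of 34 with 36 h as the highest of the 4 libraries, and 54 against 85 with 36 and 60 h below 24 and 48 h. Among members that stay with rescaled libraries, 34 of 150 had another at the next identifier. No paired analysis was possible because no time had a second library. By the weak estimate given above, depth limits low values most in the 60 h library.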
